A study of Mus musculus with 6 samples.

Results

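Blood vessels of the cochlea were followed through 10 genes, 8 that mark endothelial cells (Pecam1, Cdh5, Kdr, Flt1, Tek, Cldn5, Emcn and Vwf) and 2 that mark pericytes (Pdgfrb and Rgs5). They are listed by name as known markers, a rule that uses no measured value, though earlier results of these data were known. They are 10 of the 25419 genes in the table, and all 10 were among the 19465 genes tested. The samples were cochleas of C57BL/6 mice, a strain that loses hearing early, from which the basilar membrane had been dissected. The young group was 1 month old and the old group was 12 months old, with no treatment in either. Each group had 3 samples, and each sample mixed the tissue of 3 mice, so the spread between samples is a spread between pools and not between single mice. The sex of the mice was not given in the sources used here, nor was it stated which cochlear vessels stayed with the dissected tissue. The question asked was whether the RNA of the vessel wall differed between the 2 ages.

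The endothelium lines every blood vessel, and its cells hold together through adherens and tight junctions. VEGF and angiopoietin receptors on these cells carry signals for growth, survival and rest, and pericytes sit on the outside of the capillary tube under PDGF signals from the endothelium. In the cochlea, tight endothelium and dense pericyte cover form the blood-labyrinth barrier, which is known best in the stria vascularis. Smaller vessels run below the basilar membrane and in the spiral limbus.

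Promoter sequences of 6 of the 10 genes could be matched by symbol to RefSeq (GRCm38.p6). Pecam1, Cdh5, Vwf and Pdgfrb were not matched. The sequences of Cldn5 and Kdr are shown as examples of genes for which the samples of the 2 ages did not overlap. Tek was another such gene, but its sequence is not shown. Those of Emcn and Flt1 are shown because they hold AGGAAG. This is 1 form of the site bound by ETS factors, a family that endothelial genes often use. Each run is the 250 bases before the RefSeq start of the gene, 5′ to 3′ on the strand of the gene. The GENCODE gene starts earlier for Emcn and Kdr, so that 11 and 3 bases of these windows lie inside it. Capitals mark AGGAAG or, on the opposite strand, CTTCCT; no other motif was searched, and the shorter ETS core GGAA was not counted. The windows are chr16:18776597-18776846 (plus strand) for Cldn5, chr5:75978456-75978705 (minus strand) for Kdr, chr3:137340828-137341077 (plus strand) for Emcn and chr5:147726012-147726261 (minus strand) for Flt1.
Cldn5: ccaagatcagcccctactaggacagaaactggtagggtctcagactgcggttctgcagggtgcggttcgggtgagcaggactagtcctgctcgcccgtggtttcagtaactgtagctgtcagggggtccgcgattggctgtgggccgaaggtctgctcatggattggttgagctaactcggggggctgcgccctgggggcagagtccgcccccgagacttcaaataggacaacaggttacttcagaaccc
Kdr: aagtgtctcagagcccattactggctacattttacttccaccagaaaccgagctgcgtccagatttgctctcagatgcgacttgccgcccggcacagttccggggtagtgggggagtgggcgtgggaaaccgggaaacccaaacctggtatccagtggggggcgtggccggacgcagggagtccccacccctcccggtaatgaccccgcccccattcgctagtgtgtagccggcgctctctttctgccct
Emcn: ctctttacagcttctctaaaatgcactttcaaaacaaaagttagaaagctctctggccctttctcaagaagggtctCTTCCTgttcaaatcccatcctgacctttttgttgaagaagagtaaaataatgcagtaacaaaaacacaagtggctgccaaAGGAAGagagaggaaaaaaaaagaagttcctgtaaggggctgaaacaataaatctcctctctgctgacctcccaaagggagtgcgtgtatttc
Flt1: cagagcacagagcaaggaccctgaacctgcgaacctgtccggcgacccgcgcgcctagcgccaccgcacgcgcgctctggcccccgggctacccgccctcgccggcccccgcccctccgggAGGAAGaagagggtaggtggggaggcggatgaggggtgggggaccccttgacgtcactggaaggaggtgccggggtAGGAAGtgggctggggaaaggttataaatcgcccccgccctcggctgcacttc
The motif was present in 2 of the 6 promoters, with 2 copies each in Emcn and Flt1. It was not present in the windows of Cldn5, Kdr, Tek and Rgs5. Of all 32851 promoters of the same length, 29.5% held it.

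Flt1 makes a receptor that spans the membrane and a soluble receptor that binds VEGF without signalling, and the table lists a transcript for each. Both are shown at the point where they part, since their levels are compared further on. Flt1-202 has 30 exons and Flt1-203 has 13. The lower-case letters are the last 30 bases they share, in exon 13 (GRCm38, chr5:147639225-147639254, minus strand). Capitals mark the 95 bases that follow in each transcript, read on through the intron to the stop codon in Flt1-203 (chr5:147639130-147639224) and from exon 14 in Flt1-202 (chr5:147634429-147634523).
Flt1-203: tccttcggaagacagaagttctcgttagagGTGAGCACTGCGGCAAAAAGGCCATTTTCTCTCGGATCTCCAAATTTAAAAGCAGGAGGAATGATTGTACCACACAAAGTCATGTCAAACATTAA
Flt1-202: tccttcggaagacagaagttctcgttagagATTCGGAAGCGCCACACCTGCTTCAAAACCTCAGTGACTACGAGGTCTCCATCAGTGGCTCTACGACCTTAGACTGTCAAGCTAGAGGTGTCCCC
The coding sequence is 2064 nt (688 codons) in Flt1-203 and 3999 nt (1333 codons) in Flt1-202, as annotated in GENCODE.

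Levels are given as FPKM, fragments scaled to transcript length and library size, summed over the transcripts of a gene. FPKM is scaled by length, so levels of different genes can be set side by side. Changes are log2 differences of FPKM + 0.1, old minus young, from limma fitted over all 19465 genes, with p-values adjusted over all of them by the Benjamini-Hochberg method and a threshold of 0.05. The depth was estimated at 12380000 to 15670000 fragments per sample. Behind single values of the 10 genes stood an estimated 165 fragments (Kdr, old replicate 1) to 6196 fragments (Rgs5, young replicate 2). Hair cell and supporting cell genes were present in every sample, among them Slc26a5 (prestin, the motor of outer hair cells) at 2.96 to 7.68 FPKM and Gjb2 (connexin 26) at 339 to 478 FPKM. None of the 10 vessel genes was at 0 in any sample.

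The pericyte gene Rgs5 had the highest mean level over the 6 samples, at 99.1 FPKM. Emcn followed at 72.1 FPKM, Cldn5 at 34.0, Pdgfrb at 23.7 and Pecam1 at 13.9. Tek (9.23 FPKM) and Flt1 (9.17 FPKM) were nearly equal, with Tek above Flt1 in 4 of 6 samples. Cdh5 (5.36 FPKM), Vwf (4.43 FPKM) and Kdr (4.36 FPKM) were the lowest. Neighbours in this order had ranges apart only for Rgs5 and Emcn, for Pdgfrb and Pecam1 and for Flt1 and Cdh5. The ranges of all other neighbours overlapped.

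**Figure D1:**
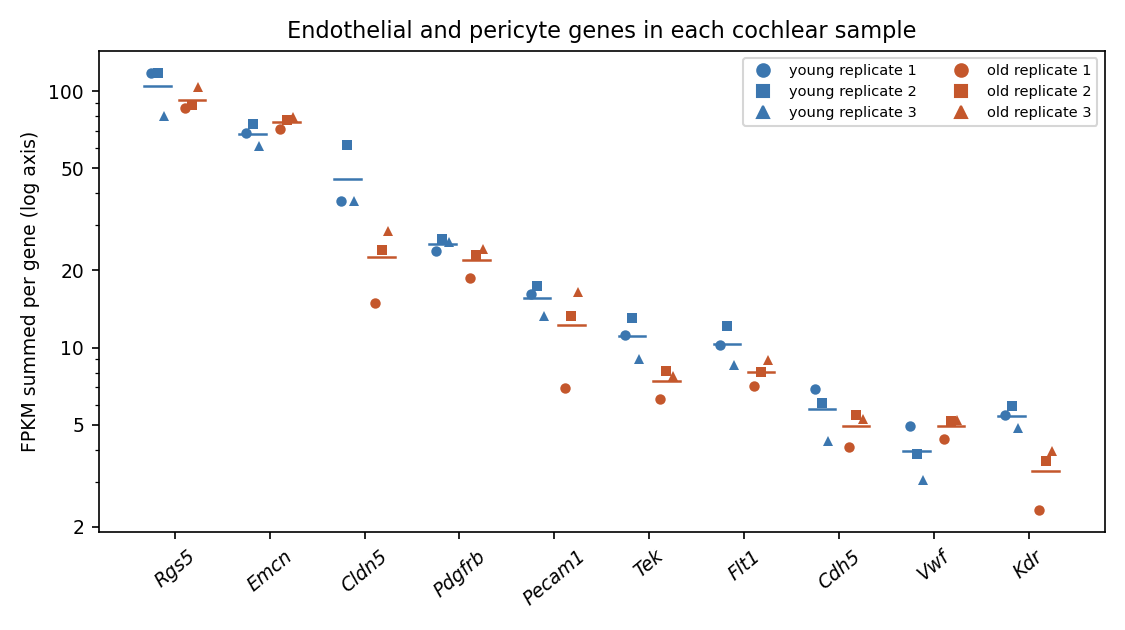
FPKM (log axis) of the 8 endothelial and 2 pericyte genes in each of the 6 samples, ordered by mean level. Each symbol is 1 sample and each horizontal line the mean of 3 samples. Old samples of Cldn5, Tek and Kdr lie below all young samples, and old replicate 1 (circle) is the lowest old sample for every gene.

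No vessel gene passed the threshold in either direction (0 of 10). Of all genes tested 9.45% passed it, 5.65% higher and 3.81% lower in old mice. Without adjustment, 3 of the 10 had p under 0.05, all with lower values in old mice, against 13.1% of all genes in that direction (and 14.6% in the other). For the same 3 genes, Cldn5, Tek and Kdr, every old sample lay below every young sample, against 16.1% of all genes. The log2 change was below 0 for 8 of the 10 genes and for 9545 of all 19465 genes tested. The median was -0.28 for the 10, beside 0.01 over all genes tested. In tissue samples, fewer cells of a type and less RNA per cell cannot be told apart.

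**Figure D2:**
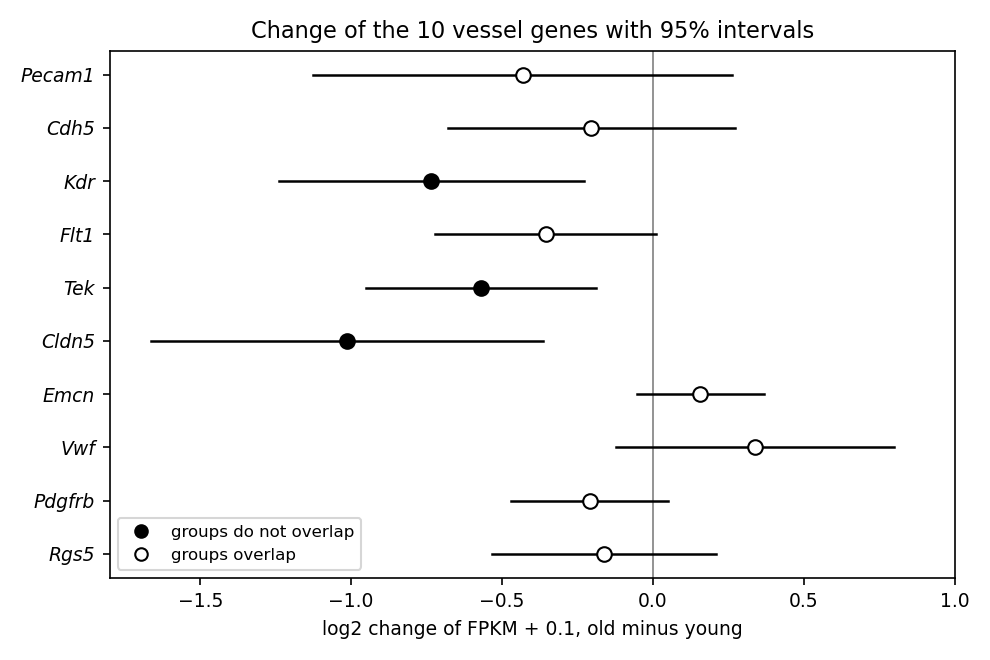
Log2 change of FPKM + 0.1, old minus young, for the 10 vessel genes with the 95% interval from limma (3 samples per group). Filled circles mark Kdr, Tek and Cldn5, where the groups do not overlap; 8 of 10 circles lie left of 0.

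Cldn5 encodes claudin-5, the main tight junction protein of barrier endothelium. It lies on chr16:18776847-18778262 and has a single exon. Its levels were 37.2, 61.7 and 37.3 FPKM in young replicates 1 to 3 and 15.0, 24.1 and 28.6 FPKM in old replicates 1 to 3. Young replicate 2 was far above the other young samples, and all old samples were below the lowest young sample. The mean was 45.4 ± 14.1 FPKM (SD, n = 3) in young mice and 22.5 ± 6.94 (SD, n = 3) in old mice. The log2 change was -1.01 ± 0.28 (SE), a fold of 0.495 with a 95% interval of 0.316 to 0.776. This was the largest change among the 10 genes, and its limma adjusted p was 0.0629. Without old replicate 1 the log2 change was -0.75, and without young replicate 2 it was -0.77.

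Pecam1 (CD31) and Cdh5 (VE-cadherin) hold endothelial cells to each other. Pecam1 measured 16.2, 17.4 and 13.3 FPKM in young samples and 6.93, 13.3 and 16.5 FPKM in old samples. Old replicate 1 was far below all other samples, and the other old samples lay within or beside the young range. The log2 change of Pecam1 was -0.43 ± 0.30 (SE, 95% interval -1.12 to 0.26, adjusted p = 0.392 by limma). It was -0.07 without old replicate 1 and -0.69 without old replicate 3. Cdh5 measured 6.87, 6.11 and 4.34 FPKM in young samples and 4.11, 5.47 and 5.25 FPKM in old samples. Its groups overlapped, with a log2 change of -0.20 ± 0.20 (SE, 95% interval -0.68 to 0.27, adjusted p = 0.552 by limma). It was -0.08 without old replicate 1, -0.07 without young replicate 1 and -0.39 without young replicate 3.

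Kdr and Flt1 encode VEGF receptors 2 and 1; Kdr carries most of the growth signal and Flt1 binds VEGF tightly with weak signalling. Kdr measured 5.47, 5.94 and 4.88 FPKM in young samples and 2.32, 3.60 and 3.95 FPKM in old samples. All 3 old samples were below all young samples. Its log2 change was -0.74 ± 0.22 (SE), a fold of 0.601 with a 95% interval of 0.423 to 0.853, and the limma adjusted p was 0.0758. Flt1 measured 10.3, 12.2 and 8.54 FPKM in young samples and 7.06, 8.02 and 8.94 FPKM in old samples. Only old replicate 3 reached into the young range. The log2 change of Flt1 was -0.36 ± 0.16 (SE, 95% interval -0.72 to 0.01, adjusted p = 0.192 by limma), and -0.23 without young replicate 2.

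Tek encodes Tie2, the receptor of the angiopoietins. It measured 11.2, 13.01 and 9.02 FPKM in young samples and 6.33, 8.10 and 7.73 FPKM in old samples. The groups did not overlap. The log2 change was -0.57 ± 0.16 (SE), a fold of 0.674 with a 95% interval of 0.517 to 0.878, and the limma adjusted p was 0.0710. Tek was the only one of the 10 genes to pass the threshold under any alternative setting, with a limma adjusted p of 0.0394 and a log2 change of -0.71 when young replicate 3 was left out. Over all alternatives its adjusted p ranged from 0.0394 to 0.194.

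Emcn and Vwf did not share the lower means. Emcn encodes endomucin, a sialomucin on the surface of capillaries and veins. It measured 68.9, 74.9 and 61.0 FPKM in young samples and 71.1, 77.6 and 79.2 FPKM in old samples, with a log2 change of 0.16 ± 0.09 (SE, 95% interval -0.05 to 0.37, adjusted p = 0.304 by limma). Vwf encodes von Willebrand factor, a clotting protein stored in endothelial cells and also made by megakaryocytes. It measured 4.93, 3.84 and 3.04 FPKM in young samples and 4.39, 5.18 and 5.23 FPKM in old samples, with a log2 change of 0.34 ± 0.20 (SE, 95% interval -0.12 to 0.80, adjusted p = 0.310 by limma). The groups overlapped for both genes. Without young replicate 3 the log2 change was 0.08 for Emcn and 0.17 for Vwf, and without young replicate 1 that of Vwf was 0.51. Of 7 platelet and megakaryocyte genes 5 could be tested and 0 were called, against 9.45% of all genes. Their summed level was 5.06 to 19.0 FPKM in young samples and 11.8 to 17.2 FPKM in old samples. Their part in the Vwf values was not tested.

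The groups overlapped for both pericyte genes. Pdgfrb encodes the receptor by which PDGF-BB holds pericytes on the vessel, and fibroblasts also carry it. It measured 23.9, 26.4 and 25.8 FPKM in young samples and 18.8, 23.1 and 24.3 FPKM in old samples. Old replicate 3 lay inside the young range, and the log2 change was -0.21 ± 0.11 (SE, 95% interval -0.47 to 0.05, adjusted p = 0.267 by limma). Without old replicate 1 it was -0.10. Rgs5 is a regulator of G protein signalling that is abundant in pericytes. It measured 118, 118 and 79.8 FPKM in young samples and 86.2, 88.8 and 103 FPKM in old samples, where young replicate 3 was the lowest of all 6 samples. Its log2 change was -0.16 ± 0.16 (SE, 95% interval -0.53 to 0.21, adjusted p = 0.546 by limma). It was -0.35 without young replicate 3 (adjusted p = 0.0707 by limma, within a range of 0.0707 to 0.853 over all alternatives) and -0.07 without young replicate 1 or 2. Exact two-sided permutation tests of single genes cannot go below p = 0.1 with 3 samples against 3; Cldn5, Kdr and Tek reached that value, and the other 7 genes gave 0.2 or 0.4.

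Within each age, most of the 10 vessel genes had their lowest value in the same sample. Old replicate 1 had the lowest old value in 10 of 10 vessel genes and in 20 of 24 other endothelial genes, while 36.3% of all genes tested had their lowest old value there. Young replicate 3 had the lowest young value in 8 of the 10 and in 20 of the 24, against 31.99% of all genes. The further vessel lists described below showed this less. Old replicate 1 was the lowest old sample in 7 of 14 barrier, 7 of 18 mural, 10 of 20 signal and 4 of 10 basement membrane genes. Young replicate 3 was the lowest young sample in 8, 9, 5 and 3 of these. On the log2 scale, relative to the mean of the young samples, the 8 endothelial genes averaged 0.06, 0.19 and -0.25 in young replicates 1 to 3 and -0.68, -0.24 and -0.14 in old replicates 1 to 3. The 2 pericyte genes averaged 0.05, 0.13 and -0.18 in young mice and -0.35, -0.18 and -0.03 in old mice. Thus young replicate 3 lay below old replicates 2 and 3 in the endothelial mean, and the groups overlapped. The mean over all genes tested stayed between -0.02 and 0.07 in the 6 samples.

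**Figure D3:**
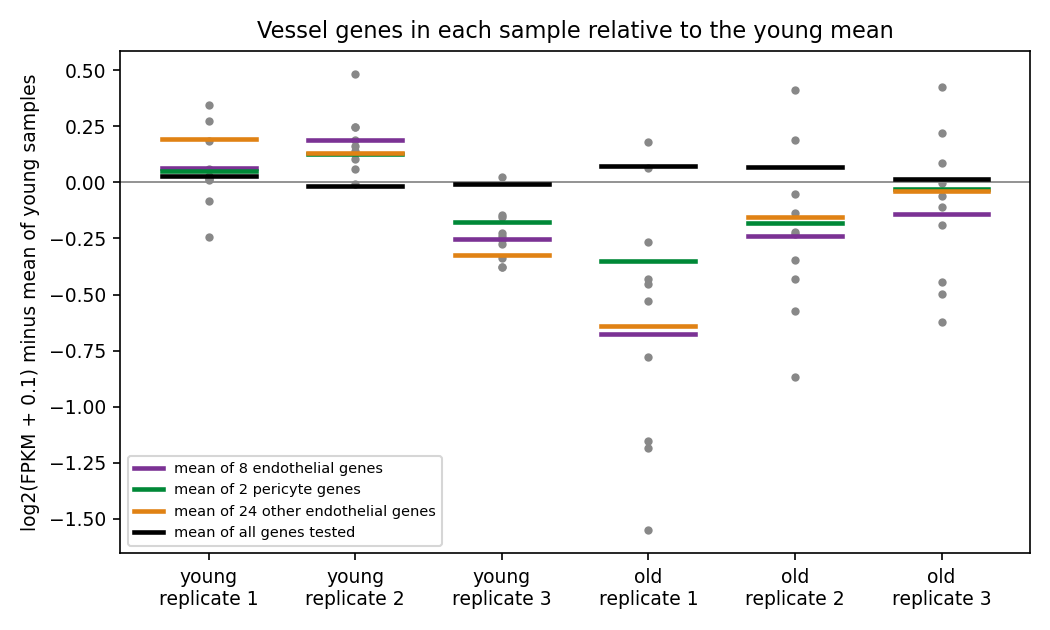
Log2(FPKM + 0.1) of the 10 vessel genes (grey points) in each sample, minus the mean of the 3 young samples. Lines show the mean of 8 endothelial genes, 2 pericyte genes, 24 other endothelial genes and all genes tested; the endothelial mean is lowest in old replicate 1 (-0.68) and next lowest in young replicate 3 (-0.25).

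Ratios within a sample were taken after these values had been seen and are given without a test. The ratio of Kdr to Emcn FPKM was 0.0793, 0.0793 and 0.0800 in young mice and 0.0327, 0.0464 and 0.0499 in old mice. Cldn5 to Emcn was 0.540, 0.825 and 0.611 in young mice and 0.211, 0.310 and 0.361 in old mice. Tek to Emcn was 0.162, 0.174 and 0.148 in young mice and 0.0891, 0.104 and 0.0977 in old mice. In all 3 ratios the groups did not overlap. Kdr, Cldn5 and Tek had groups apart by themselves, and Emcn had a higher mean in old mice. The separation of these ratios thus adds little to the single genes. The ratio of Rgs5 to Pdgfrb, both of pericytes, overlapped between the ages at 3.09 to 4.92 in young mice and 3.85 to 4.60 in old mice. Pdgfrb to Pecam1, pericytes over endothelium, also overlapped at 1.48 to 1.94 in young mice and 1.47 to 2.71 in old mice.

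The table lists single transcripts, 25 for the 10 genes, and 21 of them were tested in a fit over all 38764 transcripts. None was called (0 of 21, against 0.748% of all transcripts), with 3 lower and 1 higher at an unadjusted p under 0.05, against 7.98% and 9.05% of all transcripts. The lowest adjusted p of limma was 0.150, for Cldn5-201. The membrane form Flt1-202 measured 5.59, 6.13 and 4.80 FPKM in young samples and 4.28, 4.99 and 4.80 FPKM in old samples, with a log2 change of -0.22 ± 0.15 (SE, adjusted p = 0.516 by limma). The soluble form Flt1-203 measured 4.69, 6.03 and 3.73 FPKM in young samples and 2.78, 3.03 and 4.14 FPKM in old samples, with a log2 change of -0.52 ± 0.25 (SE, adjusted p = 0.341 by limma). Flt1-203 made up 45.6%, 49.6% and 43.7% of Flt1 in young mice and 39.4%, 37.7% and 46.3% in old mice, which overlap (exact permutation p = 0.3, two-sided). Their split rests on how Cuffdiff divided fragments of the shared exons.

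For Tek, most of the RNA was assigned to Tek-203, with 7.43, 10.3 and 7.22 FPKM in young samples and 4.36, 6.06 and 5.54 FPKM in old samples. All old samples of Tek-203 were below all young samples, with a log2 change of -0.63 ± 0.20 (SE, adjusted p = 0.180 by limma). Emcn-201 made up 66.8%, 65.9% and 67.9% of Emcn in young mice and 69.1%, 69.1% and 69.7% in old mice. Emcn-202, with a coding sequence of 783 nt against 744 nt, made up 31.9%, 31.1% and 30.6% in young mice and 28.5%, 28.7% and 27.8% in old mice. The groups did not overlap for either share, at the smallest exact permutation p of 0.1 (two-sided). The rest, Emcn-204, made up only 1.28% to 3.03% in young mice and 2.23% to 2.54% in old mice. The shares of Emcn-201 and Emcn-202 thus largely mirror each other and count as a single result. Shares of other vessel gene transcripts were compared too, and how often shares lay apart over all transcripts was not tested. Pecam1 was split over 4 tested transcripts, whose shares varied widely between samples of the same age. Pecam1-203 took 46.9%, 49.2% and 26.5% of Pecam1 in young mice and Pecam1-204 took 18.2%, 13.1% and 43.0%, so young replicate 3 differed from the others.

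**Figure D4:**
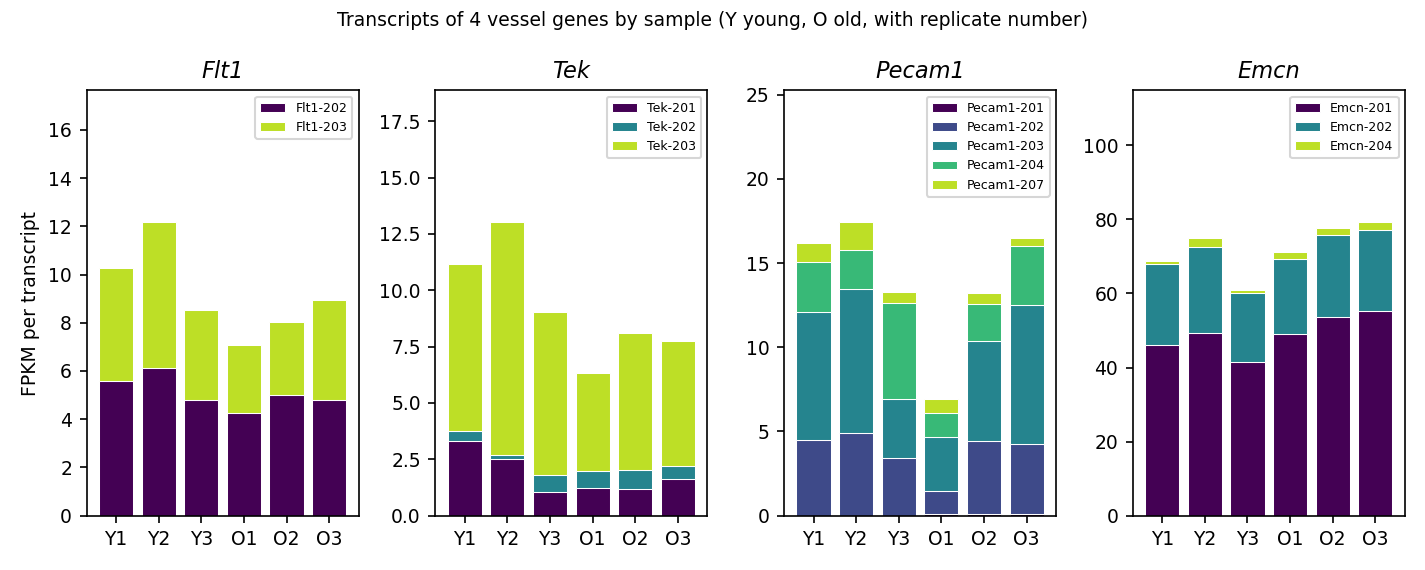
Stacked bars of FPKM per transcript for Flt1, Tek, Pecam1 and Emcn in each sample (transcripts reaching 0.1 FPKM in any sample). In Flt1 the soluble form Flt1-203 holds 37.7% to 49.6% of the gene, and in Emcn the share of Emcn-201 is 65.9% to 67.9% in young mice and 69.1% to 69.7% in old mice.

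Other endothelial genes gave a like picture. Of 24 such genes, all tested, 0 were called, against 9.45% of all genes. The log2 change was below 0 for 21, with a median of -0.20, against 9545 of all 19465 genes. Relative to the young mean, the median log2 value of the list was -0.60, 0.01 and -0.05 in old replicates 1 to 3. Old replicate 1 held the lowest of the 6 values in 19 of the 24 genes, against 3422 of all genes. At an unadjusted p under 0.05 there were 5 lower and 0 higher, against 13.1% and 14.6% of all genes. Every old sample was below every young sample in 5 of the 24, against 16.1% of all genes, and above in 1, against 17.6%. The latter was Erg, an endothelial ETS factor named after its values were seen, with 1.60, 1.48 and 0.142 FPKM in young samples and 2.26, 1.62 and 2.29 FPKM in old samples (log2 change 1.30 ± 0.72 SE, adjusted p = 0.284 by limma). Young replicate 3 was far below the other samples of Erg, and without it the log2 change was 0.38. The most abundant was Egfl7, a secreted protein of the vessel wall, with 48.8, 46.4 and 38.0 FPKM in young samples and 20.5, 33.3 and 45.3 FPKM in old samples (log2 change -0.49 ± 0.26 SE, adjusted p = 0.275 by limma). S1pr1, the receptor for sphingosine 1-phosphate, had a log2 change of -0.06 ± 0.15 (SE, adjusted p = 0.839 by limma), which turned positive without young replicate 1 or without old replicate 1. Eng, a co-receptor for TGF-beta, had 0.13 ± 0.11 (SE, adjusted p = 0.486 by limma). Cyyr1 came nearest to the threshold, at 2.75 ± 0.703 FPKM in young samples and 1.26 ± 0.320 FPKM in old samples (SD, n = 3, adjusted p = 0.0507 by limma); it is named for that value, after it was seen.

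Genes for barrier transport and junctions moved in both directions. Of 14 genes, all tested, 2 rose and 3 fell, against 5.65% and 3.81% of all genes, with a median of -0.25. Mfsd2a, a lipid transporter of barrier endothelium that is also made by other cells, rose from 10.8 ± 1.65 to 21.7 ± 1.17 FPKM (SD, n = 3, log2 change 1.01 ± 0.12 SE, adjusted p = 0.0115 by limma). Lsr, a protein of tricellular junctions in endothelium and epithelium, rose from 10.7 ± 0.525 to 15.6 ± 2.59 FPKM (SD, n = 3, adjusted p = 0.0460 by limma). Slco1a4, an organic anion transporter, fell from 118 ± 4.80 to 87.2 ± 3.22 FPKM (SD, n = 3, log2 change -0.43 ± 0.06 SE, adjusted p = 0.0146 by limma). Slc16a1, a lactate transporter, had a log2 change of -0.65 ± 0.13 (SE, adjusted p = 0.0302 by limma). Tjp1, the junction scaffold ZO-1 that epithelia carry too, had -0.41 ± 0.08 (SE, adjusted p = 0.0258 by limma). Slc2a1, the glucose transporter of barrier endothelium, was the most abundant of the list at 118 ± 11.7 and 123 ± 23.2 FPKM (SD, n = 3, adjusted p = 0.844 by limma). Pecam1, in comparison, had 15.6 ± 2.12 FPKM in young samples and 12.2 ± 4.87 FPKM in old samples (SD, n = 3). How much of the RNA of this list came from endothelium was not tested. The small difference of Slc2a1 changed sign under quantile normalization and when young replicate 3 or old replicate 3 was left out. Slco1c1, a transporter of thyroid hormone, measured 98.7, 108 and 101 FPKM in young samples and 90.05, 89.0 and 79.8 FPKM in old samples, with no overlap (adjusted p = 0.0713 by limma), and passed the threshold only under quantile normalization. Leaving out 1 sample left 0 or 1 gene higher, and 0 to 6 lower, with 0 in both directions without old replicate 2. In these fits Mfsd2a lost its call only without old replicate 2, and Slco1a4 without old replicate 2 or 3. Lsr was called in none of them, Slc16a1 only without young replicate 3 and Tjp1 only without young replicate 1 or 3.

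Among 18 other genes of pericytes and smooth muscle, 2 rose and 1 fell, against 5.65% and 3.81% of all genes. Their median was -0.01, with 9 log2 changes above 0 and 9 below. Mcam (CD146), an adhesion molecule of pericytes and endothelium, rose from 14.1, 10.5 and 11.4 FPKM in young samples to 29.9, 28.5 and 29.96 FPKM in old samples. This was a fold of 2.46 (log2 change 1.30 ± 0.12 SE, adjusted p = 0.00651 by limma), and Mcam was called under all 15 alternatives run for it. The list as a whole did not rise with it, and which cells made the Mcam RNA was not tested. Acta2, the actin of vascular smooth muscle, fell from 12.0, 7.64 and 7.14 FPKM to 4.32, 4.84 and 3.52 FPKM (log2 change -1.03 ± 0.22 SE, adjusted p = 0.0346 by limma). Lmod1, an actin-binding protein of smooth muscle, rose from 2.43 ± 0.358 to 3.90 ± 0.137 FPKM (SD, n = 3, adjusted p = 0.0478 by limma). Tbx18, a transcription factor of mural cells and of cochlear fibrocytes, was the most abundant of the list, with a log2 change of -0.20 ± 0.08 (SE, adjusted p = 0.164 by limma). Vtn (vitronectin), which brain pericytes make, had 0.03 ± 0.22 (SE, adjusted p = 0.938 by limma), with a sign that turned without young replicate 3 or old replicate 2. Lmod1 was not called when any 1 sample was left out, and Acta2 was called only without young replicate 3.

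Of 20 ligands and receptors of vessel signalling, 0 rose and 1 fell, against 5.65% and 3.81% of all genes. Their median was 0.05. Notch4, a Notch receptor found mainly in endothelium, fell from 6.29, 5.95 and 5.67 FPKM to 3.38, 3.48 and 4.04 FPKM (log2 change -0.70 ± 0.13 SE, adjusted p = 0.0258 by limma), a call that held only without young replicate 3 when samples were left out in turn. The most abundant genes of the list did not pass the threshold: Nrp1, a co-receptor of VEGF, had a log2 change of -0.25 ± 0.11 (SE, adjusted p = 0.198 by limma), Efnb2, an ephrin of arteries, had 0.12 ± 0.10 (SE, adjusted p = 0.454 by limma) and Notch1 had 0.17 ± 0.12 (SE, adjusted p = 0.394 by limma). The ligands of the receptors described above did not pass the threshold and are named for that role. Other VEGF and PDGF family ligands of the list, named for the same role, were not called either. Their log2 changes were 0.06 (Vegfb), -0.18 (Pgf), 0.63 (Vegfc), -0.12 (Vegfd) and 0.09 (Pdgfd). Vegfa, the ligand of Kdr and Flt1, measured 14.4, 15.2 and 19.0 FPKM in young samples and 21.5, 22.7 and 20.05 FPKM in old samples (log2 change 0.41 ± 0.12 SE, adjusted p = 0.0768 by limma). Angpt2, which can block or activate Tek, measured 8.68, 7.29 and 4.13 FPKM in young samples and 11.2, 11.5 and 13.2 FPKM in old samples (log2 change 0.89 ± 0.26 SE, adjusted p = 0.0718 by limma). For Vegfa and Angpt2 every old sample was above every young sample, as in 17.6% of all genes. Without young replicate 3 both were called.

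Angpt1, the activating ligand of Tek, measured 0.973 ± 0.147 FPKM in young samples and 0.797 ± 0.225 FPKM in old samples (SD, n = 3, adjusted p = 0.582 by limma). The ratio of Angpt2 to Tek FPKM was 0.776, 0.561 and 0.458 in young mice and 1.77, 1.42 and 1.71 in old mice, and that of Vegfa to Kdr was 2.63, 2.56 and 3.90 in young mice and 9.26, 6.30 and 5.07 in old mice. The groups were apart for both ratios, which were formed after the values had been seen and were not tested. This separation was fixed by the single genes and adds nothing to them. Every old sample was above every young sample for Angpt2 and Vegfa, and below for Tek and Kdr. Pdgfb, the endothelial ligand of Pdgfrb, measured 6.40, 7.27 and 3.96 FPKM in young samples and 3.72, 4.78 and 5.57 FPKM in old samples, with overlapping groups (log2 change -0.29 ± 0.25 SE, adjusted p = 0.495 by limma).

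Of 10 genes of the vascular basement membrane, which other cochlear cells also lay down, 1 rose and 0 fell, with a median of -0.16. Of all genes, 5.65% rose and 3.81% fell. Lama5, a laminin chain, rose from 19.7 ± 2.47 to 28.3 ± 2.54 FPKM (SD, n = 3, log2 change 0.52 ± 0.11 SE, adjusted p = 0.0354 by limma), and was called only without young replicate 3 when samples were left out in turn. Sparc, a matrix protein that is abundant in the cochlea, measured 913 ± 10.1 and 817 ± 90.5 FPKM (SD, n = 3, adjusted p = 0.261 by limma). The laminin chains Lamc1 and Lamb1 had log2 changes of -0.17 ± 0.07 (SE, adjusted p = 0.159 by limma) and -0.16 ± 0.07 (SE, adjusted p = 0.207 by limma), and all old samples lay below all young samples for both.

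**Figure D5:**
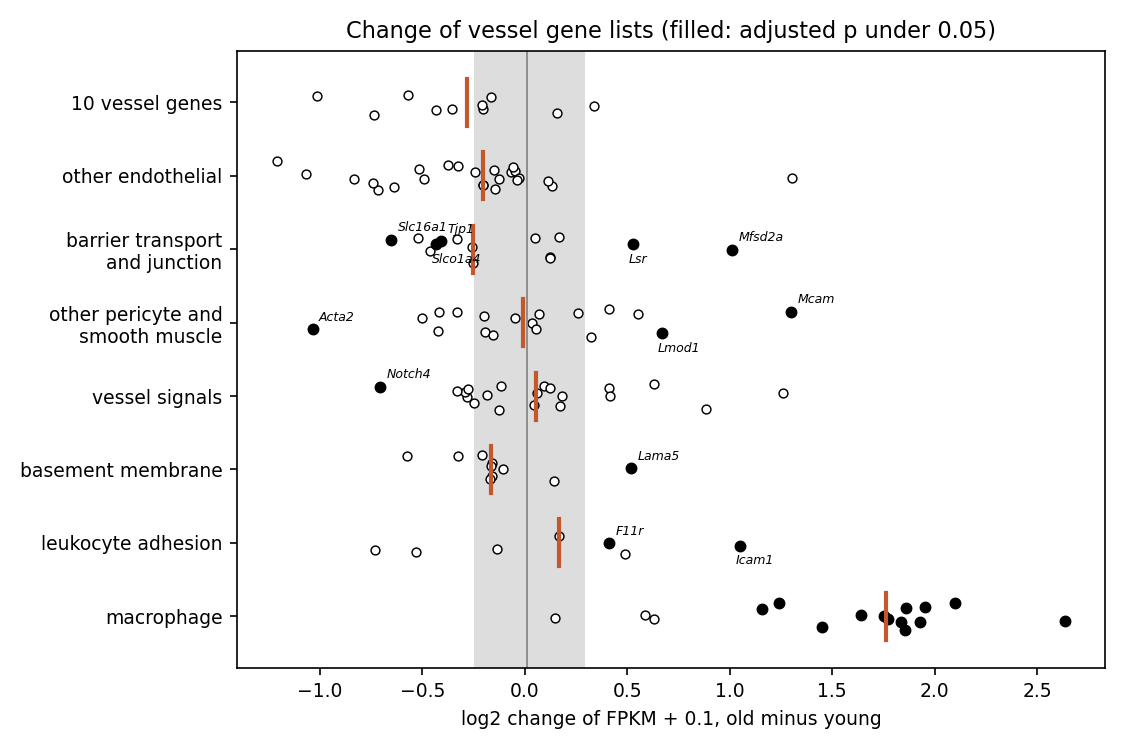
Log2 change, old minus young, of each tested gene in the 10 vessel genes, 5 further vessel lists, leukocyte adhesion genes and macrophage genes. Filled points passed an adjusted p of 0.05, vertical bars are list medians (-0.28 for the 10 vessel genes, 1.76 for macrophage genes) and the grey band spans the quartiles of all genes tested, from -0.25 to 0.29.

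Genes of other cell types moved between the same groups, where 5.65% of all genes rose and 3.81% fell. Of 16 macrophage genes 13 rose, with a median log2 change of 1.76 and a summed level of 155 to 249 FPKM in young samples and 805 to 882 FPKM in old samples; none was at 0. Of 10 hair cell genes 4 fell, with sums of 803 to 1049 FPKM in young samples and 453 to 519 FPKM in old samples. Of 8 fibroblast genes 3 fell, with sums of 418 to 542 and 312 to 348 FPKM. Of 7 erythrocyte genes tested none was called, and their sums were 1434 to 2954 FPKM in young samples and 1369 to 2254 FPKM in old samples. Of 8 supporting cell genes 1 rose. The part of these cell types in the values of the vessel genes was not tested.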

How the data were processed

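RNA was taken from cochlear samples of young and old mice, 3 per group, and groups were read from the labels. Directional libraries were sequenced; the submitters' processing notes name CASAVA 1.8, TopHat2 2.0.9, Cufflinks 2.1.1, Cuffdiff 2.1.1 and GRCm38. The deposited values are FPKM per transcript, as the authors computed them with Cuffdiff. The annotation release, the scaling between libraries and whether strand was used are not given in the sources used here. Cuffdiff could not be repeated from FPKM.

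The table held 56671 transcripts. Of 55679 Ensembl transcripts, 55275 were found in GENCODE M21 (GRCm38) and summed per gene, and 404 were not used. The authors' own assembled transcripts entered as they stand. Genes with a mean of at least 0.1 FPKM were tested with limma 3.58.1 in R 4.3.3 (lmFit, eBayes with a variance trend, two-sided) on log2(FPKM + 0.1), with age group as the only term. This scale understates changes of low genes. Samples may differ by technical as well as animal spread. The code was tested on simulated data. Depth was estimated by fitting low FPKM values of transcripts of 1000 to 4000 nt as whole fragments, and 92.5% to 93.8% of these values lay within 0.1 of a whole number. It limits counting precision only.

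The 10 genes and all lists were chosen with earlier results of these data known. Besides the 10, genes of the vessel lists were named when past the threshold or when among the 3 most abundant of their list; others are marked as chosen for their role or after their values were seen. Alternatives were other pseudocounts, filters, scalings, variance models, the replicate number as a block, the most abundant transcript per gene and leaving out each sample. Ahsp was not analysed here.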

Additional observations from a re-analysis of the deposited data

How the results depend on the processing

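All 10 vessel genes kept the direction of their log2 change under all 16 alternatives, and their side of the threshold except Tek without young replicate 3. Cldn5 ranged from -1.21 to -0.75 with adjusted p from 0.0504 to 0.188, and Kdr from -0.88 to -0.51 with adjusted p from 0.0597 to 0.206. Leaving out samples in turn gave 0 vessel genes higher and 0 to 1 lower, and 46 to 949 of all genes higher and 16 to 822 lower, with the lowest counts without old replicate 2; these fits have fewer samples. The same fits gave for barrier genes 0 to 1 higher and 0 to 6 lower, for other pericyte and smooth muscle genes 1 higher and 0 to 1 lower, for vessel signals 0 to 2 higher and 0 to 1 lower, and for basement membrane 0 to 1 in each direction. For other endothelial genes and for the transcripts of the vessel genes they gave 0. With a pseudocount of 1, 1 barrier gene and 1 pericyte or smooth muscle gene were higher. With no filter on low values, 211 of all genes were higher and 105 lower, with 1 barrier gene in each direction, 1 pericyte or smooth muscle gene higher and 0 lower, 0 vessel signals lower, 0 basement membrane genes higher and 1 vessel transcript higher (Pecam1-201, at 0.0822 to 0.106 FPKM in old samples and listed near 0 in young mice). With a filter at 1 FPKM, 1 other endothelial gene and 1 basement membrane gene were lower. Without a variance trend the counts were 284 higher and 126 lower over all genes, 1 and 0 for barrier genes, 1 and 0 for pericyte and smooth muscle genes, and 0 higher for basement membrane. With sample weights, 1 other endothelial gene and 1 basement membrane gene were lower and 1 vessel signal was higher. Slc2a1 turned to -0.0392 under quantile normalization, and ranged from -0.0821 to 0.191 with samples left out in turn (negative without young or old replicate 3). S1pr1 ranged from -0.165 to 0.0858 in these fits (positive without young or old replicate 1), and Vtn from -0.158 to 0.163 (negative without young replicate 3 or old replicate 2). Where a count moved, the cause was not tested.

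Samples of the 2 ages share replicate numbers, but same-numbered samples did not deviate together (correlations over genes 0.0230, -0.0406 and 0.0109). With the replicate block, 440 of all genes were higher and 290 lower, 1 barrier gene in each direction, 1 pericyte or smooth muscle gene higher and 0 lower, 0 vessel signals lower and 0 basement membrane genes higher; no vessel gene was called.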

Other observations

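Genes that endothelium uses to bind leukocytes were measured beside the vessel genes. Of 9 such genes, 7 could be tested (Selp and Madcam1 were under 0.1 FPKM). Of these 2 rose and 0 fell, against 5.65% and 3.81% of all genes. Icam1, the ligand of leukocyte integrins, rose from 4.44, 3.78 and 3.84 FPKM in young samples to 7.66, 8.94 and 8.68 FPKM in old samples (log2 change 1.05 ± 0.13 SE, adjusted p = 0.0115 by limma), with no overlap; macrophages, whose genes rose in the same samples, also make Icam1, and their part in this was not tested. F11r, the junction molecule JAM-A of endothelium and epithelium, rose from 23.8 ± 2.42 to 31.6 ± 0.567 FPKM (SD, n = 3, adjusted p = 0.0339 by limma). With 1 sample left out at a time, Icam1 lost its call only without old replicate 2, and F11r was called only without young replicate 3. Ackr1, a chemokine receptor of venules named after its value was seen, measured 2.44, 2.76 and 2.32 FPKM in young samples and 1.02, 1.90 and 1.63 FPKM in old samples (adjusted p = 0.120 by limma).

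Of 6 lymphatic genes 5 could be tested, and 1 rose and 1 fell, against 5.65% and 3.81% of all genes. Pdpn (podoplanin) had a log2 change of 0.47 ± 0.09 (SE, adjusted p = 0.0260 by limma) and Prox1 a log2 change of -0.98 ± 0.24 (SE, adjusted p = 0.0491 by limma). Both were called only without young replicate 3 when samples were left out in turn. Supporting cells of the cochlea also make Prox1, so it is no marker of lymph vessels alone in this tissue. For Pdpn, the cells that made the RNA were not tested either.

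The mean profile of the 8 endothelial genes over the 6 samples was compared with 14842 genes outside the lists. These had a mean of at least 1 FPKM. The nearest were Igfbp7, Gstz1, Slc25a14, Ntm and Stk10. Likeness was the root mean square distance of scaled log2 values, from 0.0261 for Igfbp7 to 0.150 for Stk10. Igfbp7 measured 87.7, 94.5 and 63.3 FPKM in young samples and 53.0, 73.0 and 77.1 FPKM in old samples. It was lowest in old replicate 1, as were 6 of the 8 endothelial genes. How near a match arises by chance among so many genes was not tested. None of the 5 was called.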
